A study of Homo sapiens with 2 samples.

Results

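The genes described here encode matrix metalloproteinases (MMP), ADAM and ADAMTS metalloproteinases, ADAMTS-like proteins (ADAMTSL), tissue inhibitors of metalloproteinases (TIMP) and HTRA serine proteases. They were taken by symbol, as every row whose name is one of these family names followed by a digit. The rule uses no measured value, but the families were chosen with earlier results of these data known. This gave 89 of the 26255 symbols in the tables, of which 75 are protein-coding, 6 antisense transcripts and 8 pseudogenes. RNA came from OVSAHO, an established human ovarian cancer cell line, with 1 library per group. The perturbed group is labelled SMARCA2 stable and SMARCA4 knockdown, and the series text calls it A2-siA4. The control group is labelled WT and called Ctrl-siNC. Both groups had 25 µM carboplatin, a DNA-crosslinking platinum drug, for 2 days. SMARCA2 and SMARCA4 are the alternative ATPases of the SWI/SNF chromatin remodelling complex. How SMARCA2 expression was raised, and whether each culture is a clone, is not given in the sources used here.

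MMPs are zinc-dependent endopeptidases that are made as inactive precursors and cut collagens, laminins, proteoglycans and other matrix proteins. ADAMs are membrane-anchored relatives, several of which release the extracellular part of growth factors, cytokines and adhesion molecules from the cell surface. ADAMTS enzymes are secreted and act on proteoglycans and procollagens, ADAMTSL proteins lack the protease domain, and TIMPs bind and block the active site of MMPs and of some ADAM and ADAMTS enzymes. HTRA proteases belong to another class, serine proteases with a PDZ domain that act in protein quality control and on the matrix. In ovarian cancer these families are studied for invasion of the peritoneal surface and for growth factor release.

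Levels are FPKM (fragments scaled by transcript length in kilobases and to 1000000 mapped fragments), which can be compared between genes because they are per length. The estimated depth was 8850000 fragments in the perturbed library and 9050000 in the control, so a 2 kb transcript at 1 FPKM had about 16.1 fragments. SMARCA2 was at 2.60 FPKM in the perturbed library against 0.205 FPKM in the control, and SMARCA4 at 4.49 and 27.9 FPKM. Of 10 markers of serous ovarian carcinoma, 9 were at 1 FPKM or more, PAX8 among them at 42.1 and 21.9 FPKM, whereas MUC16 was listed at 0 and at 0.0608 FPKM. Of 10 fibroblast markers 7 were listed at 0 in both libraries, and the list summed to 0.905 FPKM in the perturbed library against 3.32 FPKM in the control, most of it THY1. The leukocyte marker PTPRC was listed at 0 in both libraries, and the endothelial markers summed to 0.512 and 0.394 FPKM.

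With no replicates, no gene has a between-culture error and no p-value is given. The words higher and lower, without more, are kept for genes that reached 1 FPKM in a library and whose log2 ratio of FPKM + 1, perturbed over control, was 1 or more, or -1 or less. Folds are ratios of the FPKM themselves, and their 95% intervals are exact binomial (Clopper-Pearson) intervals on approximate fragment numbers. PCR copies are not independent molecules, so the intervals cover counting error alone and are too narrow for a difference between cultures. In bulk RNA, fewer cells with a transcript and less of it per cell cannot be told apart.

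Of the 89 genes, 20 reached 1 FPKM in a library, 33 were below that level in both but above 0 in at least 1, and 36 were listed at 0 in both libraries. Among the 20, HTRA1, TIMP2 and ADAM17 were higher in the perturbed library, MMP7, ADAM15 and HTRA2 were lower, and 14 lay within the limits. The 3 higher and 3 lower genes are each 15% of the 20. Across all 11785 genes at that level, 7.85% were higher and 7.61% were lower, 15.5% in either direction. With counts this small no more can be read from the comparison. The median log2 ratio of the 20 genes was 0.32, and that of all genes at this level was -0.06.

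**Figure D1:**
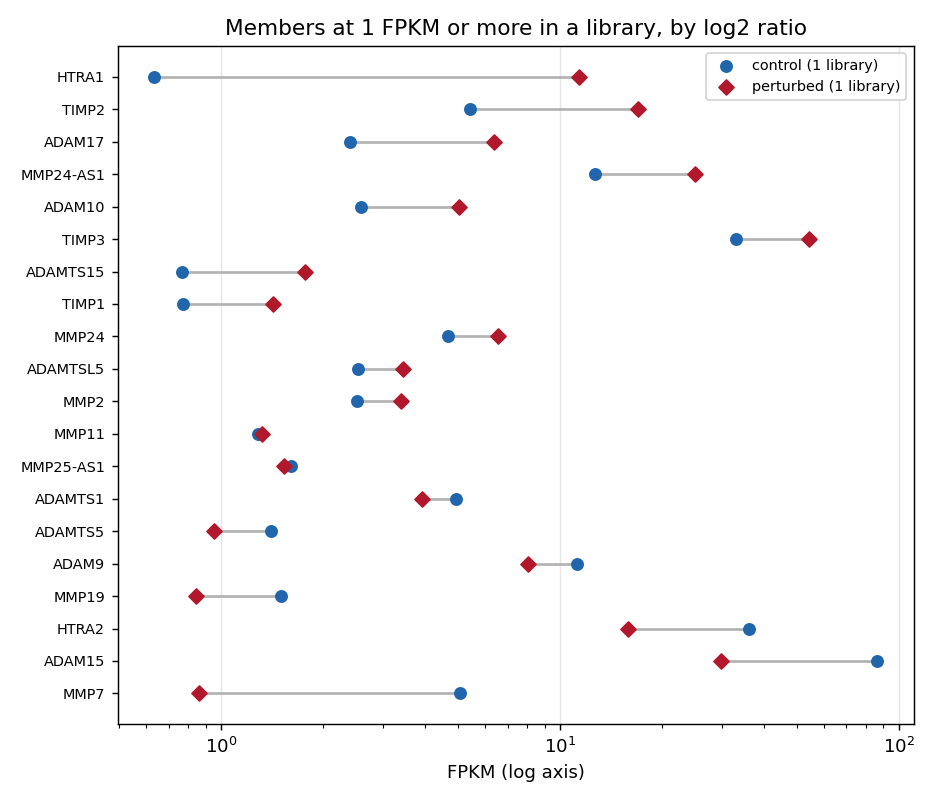
FPKM (log axis) of the 20 genes at 1 FPKM or more in a library, in the control library (circles) and the perturbed library (diamonds), ordered by log2 ratio. HTRA1 has the widest gap, from 0.633 to 11.4 FPKM, and MMP7 the widest in the other direction, from 5.06 to 0.861 FPKM.

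**Figure D2:**
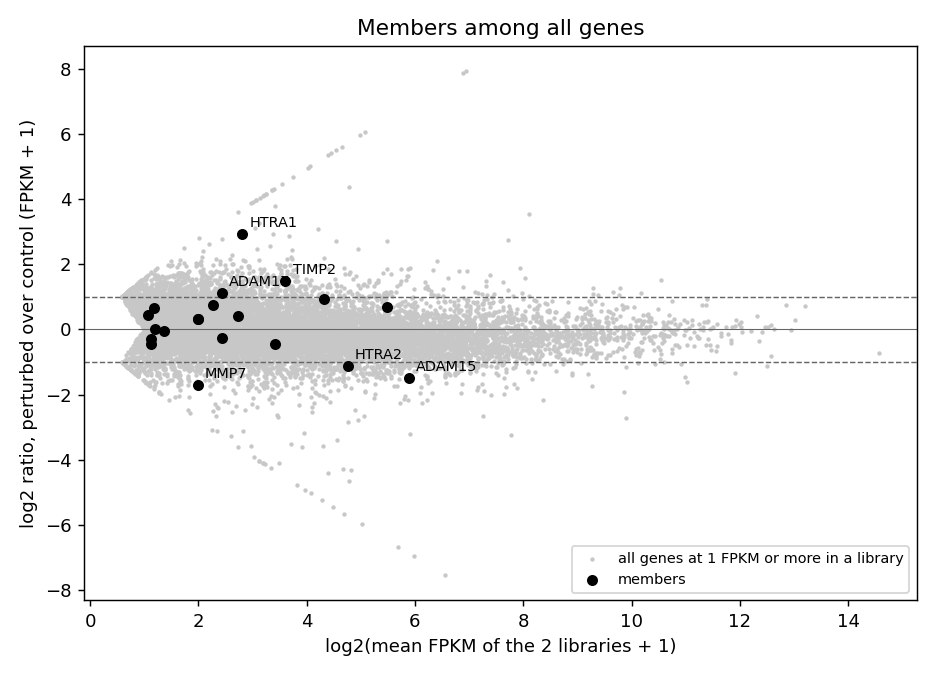
Log2 ratio of FPKM + 1, perturbed over control, against the log2 mean level of the 2 libraries plus 1, for all 11785 genes at 1 FPKM or more in a library (grey) and the 20 genes described here (black). Dashed lines mark -1 and 1, and the 6 genes beyond them are named.

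The HTRA serine proteases went apart. HTRA1, a secreted protease that cuts fibronectin and other matrix proteins, was at 11.4 FPKM in the perturbed library against 0.633 FPKM in the control. This was 17.9-fold higher (9.80 to 36.5), on about 193 fragments against 11. HTRA2, a protease of the mitochondrial intermembrane space that is released during apoptosis and antagonises inhibitor-of-apoptosis proteins, was at 15.9 and 36.2 FPKM, 2.28-fold lower (1.94 to 2.68). In the control HTRA1 was at 0.0175 times the level of HTRA2, and in the perturbed library at 0.714 times. HTRA3 and HTRA4 were listed at 0 in both libraries. The exons of HTRA2 share 483 bases with AUP1 and 625 bases with LOXL3 on the opposite strand, of 2370 exon bases in the GENCODE 29 annotation. The library kit does not mark strand, so reads from the shared bases cannot be assigned. AUP1 was at 141 and 226 FPKM and LOXL3 at 6.08 and 10.7 FPKM, both lower in the perturbed library by less than the rule, and their part in the HTRA2 value was not tested. HTRA1 shares 159 of 2279 exon bases, and TIMP2 367 of 4075, with antisense transcripts. The log2 ratio of genes at 1 FPKM or more was fitted with cubic terms of transcript length, GC content and level. Subtracting this fit gave a trend-corrected scale. On it the log2 ratio of HTRA2 moved from -1.14 to -0.91, inside the limits, and that of HTRA1 was 2.99.

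The promoters of HTRA1 and MMP7, the genes with the largest ratio in each direction, are shown with that of MMP10. MMP10 lies in the same cluster of MMP genes on chromosome 11 as MMP7. The promoters were put together because they differ in composition and share a sequence pattern in part. Each is the 250 bases before the RefSeq start (GRCh38.p14), on the gene's own strand and 5′ to 3′. HTRA1 is at chr10:122461303-122461552 on the plus strand, MMP7 at chr11:102530748-102530997 and MMP10 at chr11:102780629-102780878, both on the minus strand. Capitals mark TGANTCA, where N is any base, a pattern that reads the same on both strands. The core of the AP-1 binding motif has C or G at N, so the pattern is wider than that motif.
HTRA1: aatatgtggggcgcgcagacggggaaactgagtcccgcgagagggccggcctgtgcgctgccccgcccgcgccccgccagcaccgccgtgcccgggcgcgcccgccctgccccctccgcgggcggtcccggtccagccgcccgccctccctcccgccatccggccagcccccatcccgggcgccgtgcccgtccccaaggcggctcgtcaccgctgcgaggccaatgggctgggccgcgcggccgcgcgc
MMP7: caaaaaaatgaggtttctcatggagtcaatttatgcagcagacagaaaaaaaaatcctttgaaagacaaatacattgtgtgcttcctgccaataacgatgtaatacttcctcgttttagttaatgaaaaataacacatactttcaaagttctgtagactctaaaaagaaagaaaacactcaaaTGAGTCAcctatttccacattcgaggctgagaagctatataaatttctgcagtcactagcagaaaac
MMP10: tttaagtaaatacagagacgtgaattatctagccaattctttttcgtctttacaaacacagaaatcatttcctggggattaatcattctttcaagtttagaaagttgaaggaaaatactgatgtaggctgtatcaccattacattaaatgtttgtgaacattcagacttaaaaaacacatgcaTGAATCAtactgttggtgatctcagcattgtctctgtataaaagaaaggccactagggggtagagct
The HTRA1 window had 39 CpG dinucleotides and 81.2% G and C, without TGANTCA. The MMP7 window had 3 CpG and 33.6% G and C, with TGAGTCA beginning 67 bases before the start. The MMP10 window had 2 CpG and 34.4%, with TGAATCA beginning at the same distance of 67 bases. TGAATCA fits the wider pattern but not the AP-1 core. A window was found for 51 of the 89 genes, and 4 of the 51 held the wider pattern (MMP7, MMP10, MMP20 and ADAMTS12). This is 7.84%, against 7.43% of the 16159 genes of the tables with a window. MMP10 was shown for its match and is not the nearest neighbour of MMP7. MMP20, MMP27 and MMP8 stand nearer, and of these only MMP20 held the pattern. The level of MMP10 was about the same in both libraries, at 0.145 and 0.142 FPKM. A match is only a run of letters and does not show binding.

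MMP7, or matrilysin, a small MMP made by epithelial cells that has no hemopexin domain, was the most abundant MMP of the control. It was at 5.06 FPKM there and at 0.861 FPKM in the perturbed library, 5.87-fold lower (2.62 to 15.4), on about 42.3 fragments against 7.05. MMP26, the other matrilysin, was listed at 0 in both libraries. MMP7 stands at 1 end of a cluster of 9 MMP genes on chromosome 11 that ends with MMP13. Its other members were at or near the limit of detection. MMP10 (stromelysin) was at 0.145 and 0.142 FPKM, about 2 fragments in each library, and MMP12 (macrophage elastase) at 0.135 and 0.264 FPKM. The collagenases MMP1 and MMP13 were listed at 0 in the perturbed library and at 0.13 and 0.0877 FPKM in the control, and MMP3, MMP8, MMP20 and MMP27 at 0 in both. Thus MMP7 was the only gene of the 9 to reach 1 FPKM, and 4 of the 9 were not detected. MMP10 was level to within the value of a fragment. MMP1 and MMP13 rested on about 2 fragments in the control, and MMP12 on about 2 in the perturbed library against 4. Such small numbers give no direction for the cluster beyond MMP7. Of the 5 genes of the cluster with a promoter window, CpG numbers ran from 0 to 3, against a median of 22 over the 51 windows. Of these 5, MMP8, MMP20 and MMP27 were listed at 0 in both libraries, and all genes so listed had a median of 4 CpG. TGANTCA was held by 3 of the 5, against 7.43% of all genes with a window. The other genes of the cluster had no window. With 5 windows, neither can be called a trait of the cluster.

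The gelatinases, which cut denatured collagen and basement membrane collagen, had ratios on either side of 1. MMP2 was at 3.38 FPKM in the perturbed library against 2.52 FPKM in the control, 1.34-fold (0.940 to 1.93), an interval that holds 1. MMP9 was at 0.211 and 0.828 FPKM, 3.91-fold lower (1.26 to 16.1), on about 4 fragments against 16, and so under the level of the rule. Both values of MMP9 were low, and 430 of its 2336 exon bases overlap an antisense transcript.

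Membrane-type MMPs act at the cell surface and can activate other MMPs. MMP24 was the most abundant MMP in the perturbed library, at 6.55 FPKM against 4.68 FPKM in the control, 1.40-fold higher (1.15 to 1.71) and within the limits of the rule. MMP14, the main activator of MMP2, rested on about 1 fragment in each library, at 0.0333 and 0.0325 FPKM. MMP17, a membrane-type enzyme held by a lipid anchor, was at 0.716 FPKM on about 14 fragments in the perturbed library against a listed 0 in the control. MMP15 was at 0.4 FPKM against 0.0261 FPKM, on about 14.3 fragments against 0.955, a ratio of 15.3 with an interval of 2.27 to 749. MMP25 went the other way, at 0.0337 and 0.165 FPKM, about 1 fragment against 5. The 6 genes of this group summed to 7.77 FPKM in the perturbed library against 4.90 FPKM in the control.

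Of the remaining MMPs, MMP11, a stromelysin found mostly in stromal cells, was at 1.31 and 1.29 FPKM, which is about 23.1 fragments in each library. MMP19, a secreted enzyme with a broad range of matrix substrates, was at 0.844 and 1.5 FPKM, 1.78-fold lower with an interval of 0.879 to 3.75. MMP23B, MMP28 and 5 other coding MMPs were listed at 0 in both libraries, 7 of 23 in all. The 23 summed to 14.7 FPKM in the perturbed library against 16.7 FPKM in the control. This was 8.26% and 8.09% of the summed FPKM of the 75 coding genes of all families.

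All 3 detected TIMPs had larger values in the perturbed library, as did 5484 of all 11785 genes that reached 1 FPKM in a library. TIMP3, which binds to the matrix and also blocks ADAM17 and several ADAMTS enzymes, was at 54.3 FPKM against 33.1 FPKM, 1.64-fold higher (1.53 to 1.76) and within the limits of the rule. TIMP2, which inhibits MMPs and takes part in MMP2 activation by MMP14, was at 16.9 and 5.44 FPKM, 3.11-fold higher (2.61 to 3.73). TIMP1 was at 1.42 and 0.773 FPKM, on about 8.71 fragments against 4.84, and its interval of 0.542 to 7.18 holds 1. TIMP4 was listed at 0 in both. The family summed to 72.6 FPKM in the perturbed library against 39.3 FPKM in the control. TIMP3 made up 74.7% and 84.2% of these sums. The TIMP sum was 4.93 times the MMP sum in the perturbed library and 2.35 times in the control. TIMP3 was the most abundant coding gene of all families in the perturbed library, and ADAM15 in the control. The TIMP2 call held on the trend-corrected scale, at a log2 ratio of 1.54, and TIMP3 was at 0.80 there.

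**Figure D3:**
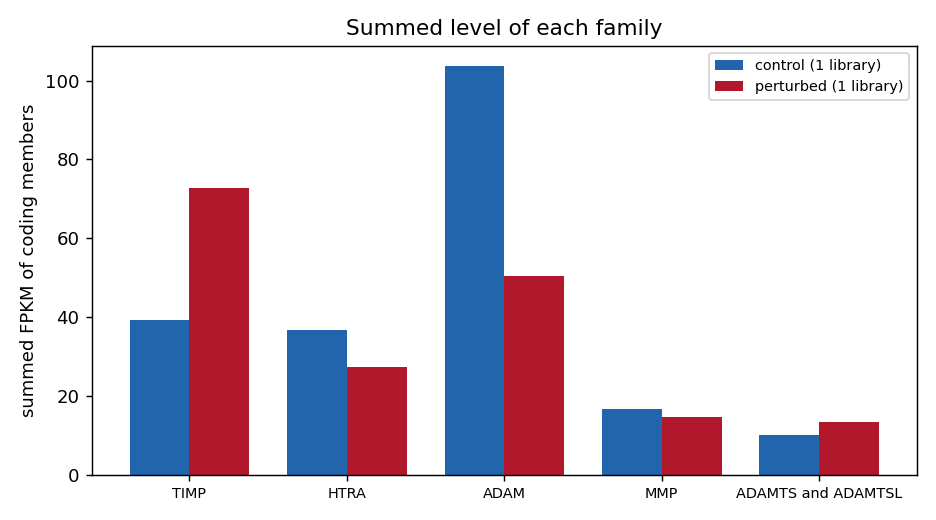
Summed FPKM of the coding genes of each family in the control library and the perturbed library, with 1 library per bar. The TIMP sum is 39.3 and 72.6 FPKM and the ADAM sum 103.6 and 50.5 FPKM.

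The ADAM family had 4 genes at 1 FPKM or more, all of them proteinases, of which 1 was higher, 1 lower and 2 within the limits. ADAM15, a membrane protease whose disintegrin domain binds integrins, was at 29.9 FPKM in the perturbed library against 86.4 FPKM in the control, 2.89-fold lower (2.65 to 3.16). ADAM17, the sheddase of tumour necrosis factor and of several ligands of the EGF receptor, was at 6.40 and 2.40 FPKM, 2.66-fold higher (2.08 to 3.42). ADAM10, the sheddase of Notch receptors and cadherins, was at 5.04 and 2.58 FPKM, a ratio of 1.95 that missed the rule. ADAM9, a widely expressed proteinase of the same type, was at 8.04 and 11.2 FPKM, 1.39-fold lower (1.18 to 1.64) and within the limits. Of the summed FPKM of these 4 genes, ADAM15 made up 84.2% in the control and 60.5% in the perturbed library. ADAM10 and ADAM17 made up 2.52% and 2.34% in the control and 10.2% and 13% in the perturbed library.

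Transcript properties touched the ADAM values unevenly. Genes with transcripts of 5000 bases or more had a median log2 ratio of 0.34, with 15% of them higher and 2.81% lower, while those of 1500 to 3000 bases had a median of -0.20. The matched ADAM10 transcript was 11431 bases long, which may not be the model used for its FPKM, so no counting interval is given for ADAM10. Its log2 ratio was 0.75, and 0.32 trend-corrected. ADAM15 and ADAM17 stayed past the rule on that scale, at -1.36 and 1.08. ADAM17 shares 1257 of its 4413 exon bases with IAH1 on the opposite strand. IAH1, an esterase homolog, was far more abundant, at 112 FPKM against 55.5 FPKM, 2.02-fold higher (1.83 to 2.22). Reads from IAH1 and ADAM17 over the shared bases cannot be told apart in this library type, and their part in the ADAM17 value was not tested.

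The other ADAMs were low or absent. ADAM21 was at 0.458 and 0.583 FPKM, and ADAM19, a proteinase that sheds neuregulin, at 0.25 and 0.0349 FPKM, on about 13.9 fragments against 1.98 (7.15-fold, 1.63 to 65.7). ADAM8 was at 0.0399 FPKM, about 1 fragment, in the perturbed library against a listed 0 in the control. Of 8 ADAMs that lack protease activity and serve in cell adhesion or at the synapse, ADAM11 (0.322 and 0.342 FPKM) and ADAM22 (0.132 and 0.0859 FPKM) were detected and the other 6 were listed at 0 in both libraries. In all, 11 of 20 coding ADAMs were at 0 in both.

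**Figure D4:**
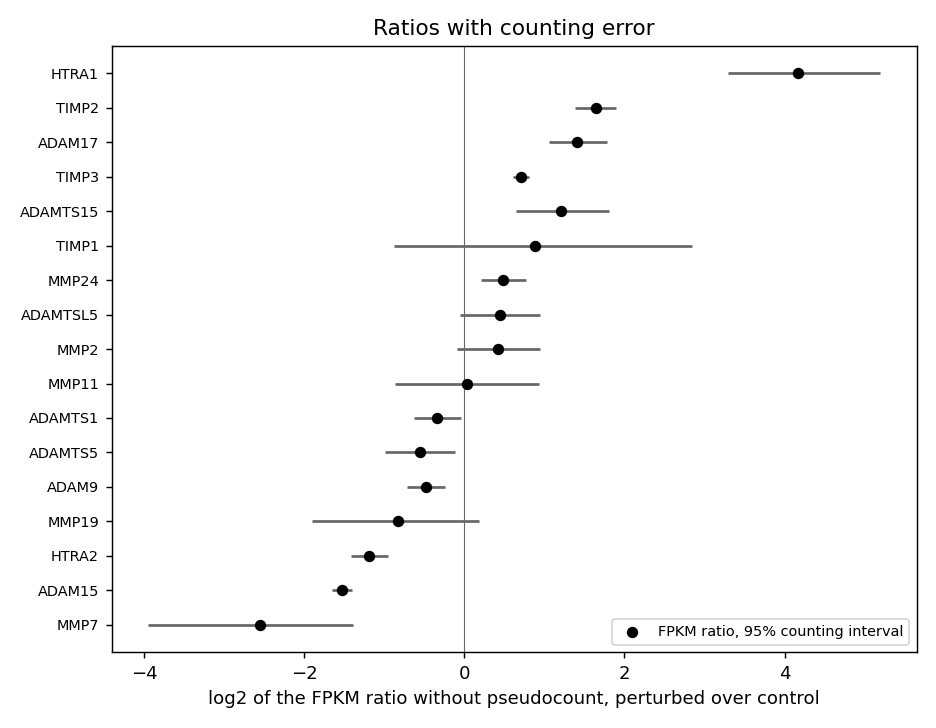
Log2 of the FPKM ratio, perturbed over control and without pseudocount, for the 17 coding genes at 1 FPKM or more in a library with a fragment number (points), with the 95% counting interval (lines). The interval leaves out 0 for 12 of the 17, and it is wide for TIMP1, MMP7 and MMP19, which rest on few fragments. It covers counting error alone. The share of all genes whose interval leaves out 0 was not computed, so the 12 are not a result about these families.

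No ADAMTS or ADAMTSL gene passed the rule in either direction. ADAMTS1, ADAMTS5 and ADAMTS15 cut the large proteoglycans versican and aggrecan. ADAMTS1 was at 3.91 FPKM in the perturbed library against 4.94 FPKM in the control, and ADAMTS5 at 0.954 and 1.40 FPKM, 1.26-fold (1.03 to 1.55) and 1.47-fold lower (1.09 to 1.99). ADAMTS15 had the opposite sign, at 1.77 and 0.766 FPKM, 2.31-fold higher (1.56 to 3.48). ADAMTSL5, which binds fibrillin microfibrils, was at 3.44 and 2.54 FPKM. The enzymes of this group that reached 1 FPKM did not go in a common direction. With a pseudocount of 0.1 FPKM the log2 ratio of ADAMTS15 was 1.11, past the rule, against 0.65 with 1 FPKM. With trends removed ADAMTS15 was at 0.26, and ADAMTS5 at -0.80 against -0.30.

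Below 1 FPKM, ADAMTS14 and ADAMTS13 had the largest values of the family. ADAMTS14, which trims the N-terminal propeptide of procollagen, was at 0.982 and 0.131 FPKM, on about 44 fragments against 6 (7.50-fold, 3.18 to 21.5). ADAMTS13, which cuts von Willebrand factor, was at 0.769 and 0.123 FPKM, on about 27 against 4.41 (6.26-fold, 2.27 to 22.8). The procollagen proteinases ADAMTS2 and ADAMTS3 were at 0.172 and 0.0803 FPKM in the perturbed library against a listed 0 in the control. ADAMTS9, a proteoglycan-cutting enzyme, was at 0.428 FPKM on about 27.1 fragments in the perturbed library against a listed 0 in the control. ADAMTS12 was at 0.19 and 0.0232 FPKM, on about 14.4 fragments against 1.8. In the other direction ADAMTS4 was at 0.0273 and 0.107 FPKM. ADAMTS14, MMP9 and ADAMTS13 are the 3 highest genes under 1 FPKM in both libraries, and the other genes of that level named here were chosen after their values were seen.

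Across all 33 genes under 1 FPKM in both libraries and above 0 in at least 1, 21 had the larger value in the perturbed library, 63.6%. All genes of that level gave 63.3%, so the share was that of the background. MMP10 and MMP14 are among the 21 although their fragment numbers were equal, because 1 fragment gave 1.02 times the FPKM there that it gave in the control. For the ADAMTS and ADAMTSL genes of that level it was 10 of 13. Low genes with transcripts of 5000 bases or more gave 71.1%, and those of 3000 to 5000 bases 63.4%. Most ADAMTS transcripts are in these classes, and the part of transcript length in their values was not tested. Of 28 coding genes of this level with a fragment number, 18 rested on fewer than 10 fragments in each library. A value of 0 allows up to 3 fragments, which is 0.186 FPKM for a 2 kb transcript, so small differences among these genes were not detectable at this depth.

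**Figure D5:**
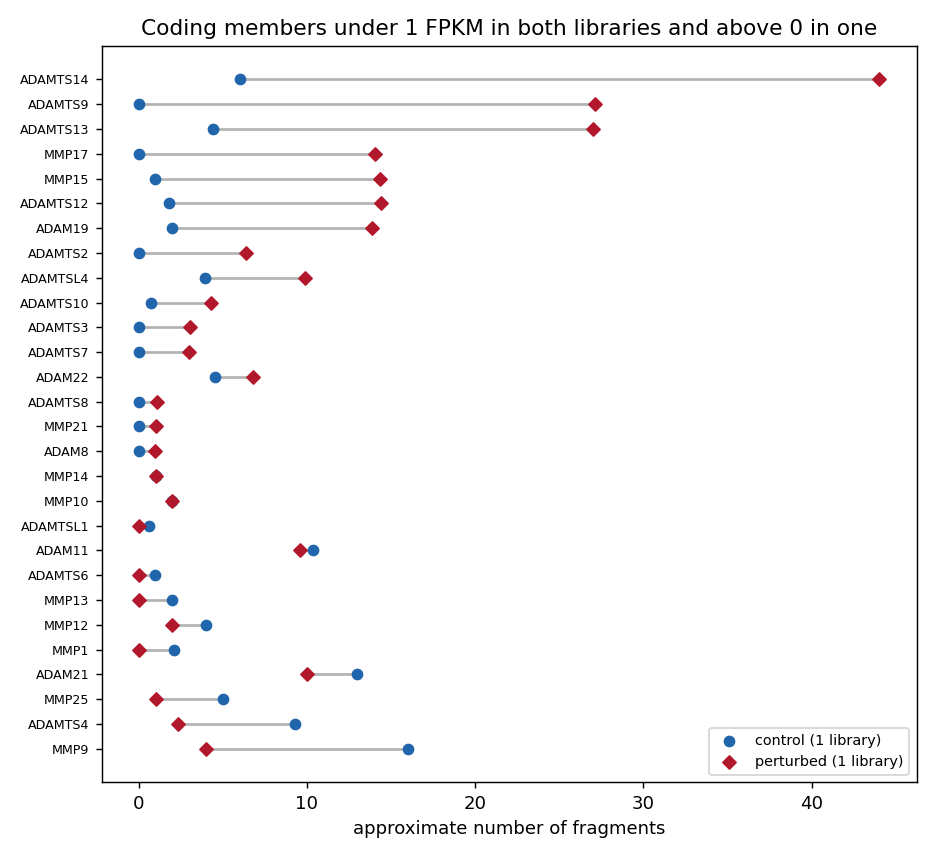
Approximate fragment numbers in the control library (circles) and the perturbed library (diamonds) of the 28 coding genes with a fragment number that were under 1 FPKM in both libraries and above 0 in at least 1, ordered by their difference. ADAMTS14, ADAMTS9 and ADAMTS13 are at 27 or more fragments in the perturbed library and at 6 or fewer in the control.

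The antisense transcripts and pseudogenes were counted apart. MMP24-AS1 was at 25.0 FPKM in the perturbed library against 12.6 FPKM in the control, a log2 ratio of 0.93 that fell just short of the rule, with no length at hand for a counting interval. MMP25-AS1 was at 1.53 and 1.60 FPKM. It shares 725 exon bases with MMP25, which was nearly absent. Without strand, an antisense transcript and its partner cannot be separated where their exons overlap. Of the 8 pseudogenes, 6 were listed at 0 in both libraries. ADAM21P1 was at 0.0611 and 0.359 FPKM, and ADAM1A at 0.299 FPKM and 0, a value that cannot be told from its host locus MAPKAPK5, which covers all of its exon bases.

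Proteins that regulate these proteases outside the families were read from lists of related genes. Over all 11785 genes at 1 FPKM or more in a library, 7.85% were higher and 7.61% lower, and the median log2 ratio was -0.06. The lists are small against these shares, so their counts are descriptions only. Of 13 regulators of metalloproteinases, 7 reached 1 FPKM, 2 were higher and none lower, with a median log2 ratio of 0.36. The endocytic receptor LRP1, which clears protease and inhibitor complexes, was at 2.39 and 0.368 FPKM. PCOLCE2, an enhancer of procollagen processing, was at 2.72 FPKM and listed at 0 in the control. LRP1 has a very long transcript, and its trend-corrected log2 ratio was 0.31. THBS1, a matricellular protein that binds several MMPs, had the opposite sign, at 0.737 and 2.29 FPKM, 3.11-fold lower (2.24 to 4.37). Its log2 ratio of -0.92 was short of the rule, and was -1.39 with trends removed, where the list had 1 higher and 1 lower. A pseudocount of 0.1 FPKM gave 2 higher and 1 lower. In the list of plasminogen activation, whose product plasmin activates several MMPs, none of 5 genes at that level passed the rule and the median was -0.25. The tissue-type activator PLAT was at 0.319 and 1.41 FPKM, 4.43-fold lower (1.78 to 13.3), on about 5.86 fragments against 26.6. Its log2 ratio was -0.87, and -1.02 with trends removed, so that 1 gene of the list was then lower, as with a pseudocount of 0.1 FPKM. The urokinase PLAU was at 8.82 and 10.7 FPKM and its inhibitor SERPINE2 at 17.6 and 15.3 FPKM. Of 9 other astacin and pappalysin metalloproteinases, 2 reached 1 FPKM. The tolloid-like procollagen proteinase TLL2 was higher, at 1.91 and 0.168 FPKM (11.3-fold, 5.94 to 24.3), with a trend-corrected log2 ratio of 0.87.

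ADAM10 and ADAM17 need partners to leave the endoplasmic reticulum, iRhoms (RHBDF genes) for ADAM17 and TspanC8 tetraspanins for ADAM10, and convertases to remove their propeptides. Of 13 such genes, 10 reached 1 FPKM, with 1 higher, 1 lower and a median log2 ratio of -0.14. The all-gene values to set beside this list and the substrates below are 7.85% higher, 7.61% lower and a median of -0.06. The tetraspanin TSPAN15 was at 6.10 FPKM in the perturbed library against 17.4 FPKM in the control, 2.85-fold lower (2.21 to 3.72). TSPAN10 was at 2.19 and 0.463 FPKM, 4.72-fold higher (1.89 to 14.2), with a trend-corrected log2 ratio of 0.69. Both belong to the group that escorts ADAM10. Among the substrates that ADAM and MMP enzymes release, 19 of 26 reached 1 FPKM, with 2 higher, 2 lower and a median log2 ratio of 0.35. The amyloid precursor APP (17.7 and 7.51 FPKM) and the EGF receptor ligand BTC (3.02 and 0.886 FPKM) were higher. The stress ligand MICB (5.31 and 16.9 FPKM) and the growth factor HBEGF (31.2 and 66.6 FPKM), a substrate of ADAM17, were lower. The trend-corrected log2 ratio of HBEGF was -0.81. The even split depended on the scaling: a common sum or centring on the median gave 5 higher and 1 lower, a pseudocount of 0.1 FPKM 6 and 3, and removal of trends 4 and 2.

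Of 23 matrix proteins cut by these proteases, 9 reached 1 FPKM, with 4 of them higher, 1 lower and a median log2 ratio of 0.55. Over all genes at that level, 7.85% were higher and 7.61% lower, and the median was -0.06. A list of 9 genes is too small to read more from this. The higher ones were the laminin chain LAMC1 (16.7 and 4.31 FPKM), tenascin TNC (13.5 and 4.17 FPKM), the basement membrane collagen chain COL4A2 (8.06 and 2.42 FPKM) and the proteoglycan BCAN (2.35 and 0.291 FPKM). All 4 stayed past the rule on the trend-corrected scale, at 1.08 to 1.49. LAMC1, TNC and COL4A2 have transcripts of 5000 bases or more, a class in which 15% of all genes were higher. The small proteoglycan FMOD was lower, at 0.0369 FPKM, about 1 fragment, against 2.51 FPKM, a ratio of 68.0 with an interval of 11.9 to 2582. The fibrillar collagen genes COL1A2 and COL3A1 were listed at 0 in both libraries, and were chosen after their values were seen.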

How the data were processed

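The processed tables of 2 RNA-seq libraries, 1 perturbed and 1 control, were used. Per the labels' protocols, RNA was purified with a micro-scale column kit, cDNA was made with SMART-Seq HT and libraries with Nextera XT, which do not mark strand. The authors deposited FPKM per gene symbol, per the file headers. Cuffdiff 2.2.1, TopHat2 2.1.1, SAMtools 0.1.18, Bowtie2 2.2.8 and hg19 are listed in the submitters' processing notes. What annotation, filters, treatment of reads with several matches and scaling between libraries were used is not given in the sources used here.

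Genes were called at 1 FPKM or more in a library with a log2 ratio of FPKM + 1 of at least 1 or at most -1. Depth was estimated from the most frequent low value of FPKM times shortened transcript length, over genes with 1 matched transcript, taken as 1 fragment. The FPKM of a fragment in the perturbed library over that in the control came separately, from ratios of low values. Of 1129 such ratios, 78.6% matched ratios of 1 to 8 whole fragments within 0.002 on the log2 scale. Fragment numbers used the mean length of GENCODE 29 transcripts matched to RefSeq (GRCh38, names and lengths only), shortened by 200 bases, for transcripts of 300 to 10000 bases. The functions were tested on simulated data. Promoter windows came from RefSeq by symbol. Genes named were all those at 1 FPKM or more, the 3 highest below it, and up to 4 per direction of each related list, or its 2 most abundant genes. Further genes were named after their values were seen, among them those under 1 FPKM other than the 3 highest, PLAT, THBS1, JUNB, FOSL2, JUN, COL1A2 and COL3A1. The ETS and RUNX factors within the limits were also named in this way. Members and lists were chosen with earlier results of these data known. Python 3.11.15, numpy 2.4.6, pandas 2.3.3 and scipy 1.17.1 were used. Alternatives were other pseudocounts, scalings, filters and rules of size, and removal of trends. The summed level of the leukocyte markers is not reported here.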

Additional observations from a re-analysis of the deposited data

How the results depend on the processing

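Of the 11 alternatives, the pseudocounts, filters and rules of size cannot change the direction of a gene. Only the scalings and the removal of trends could have done so, and they kept the direction of all 6 called genes. With a pseudocount of 5 FPKM, 2 genes were higher (HTRA1 and TIMP2) and 1 lower (ADAM15). With 1 FPKM required in both libraries, HTRA1 and MMP7 dropped out and 2 were higher and 2 lower. A rule of 1.5-fold gave 7 higher and 3 lower, and a rule of 4-fold 1 higher, HTRA1, and 0 lower. Scaling to a common sum or centring on the median added MMP24-AS1 to the higher genes, 4 against 3, and moved the share of higher calls over all genes from 50.8% to 64.5% and 62.9%. The common sum shifted the median of all genes by 0.12. The median log2 ratio of the 20 genes, 0.32, became 0.42 with a pseudocount of 0.1 FPKM, 0.16 with 5 FPKM, 0.44 with a common sum, 0.42 centred, 0.70 for the 11 genes at 5 FPKM or more, 0.22 with trends removed and 0.00 over all 89 genes without a filter. HTRA2 left the lower genes with trends removed. Of the factors of the AP-1, ETS and RUNX families, 4 were higher with a pseudocount of 0.1 FPKM and 1 with trends removed, and 2 were lower in both. No paired analysis was possible because each group has 1 library. Depth limits all genes under 1 FPKM.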

Other observations

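Factors of the AP-1, ETS and RUNX families, which are known to act on MMP promoters, were read as a list of 15 genes. Of these, 12 reached 1 FPKM, 2 were higher and 2 lower, with a median log2 ratio of -0.37. Over all genes at that level, 7.85% were higher and 7.61% lower, and the median was -0.06. The AP-1 subunit FOSL1 was at 5.65 FPKM in the perturbed library against 46.9 FPKM in the control, 8.31-fold lower (6.32 to 11.1). FOS, another AP-1 subunit, was at 8.02 and 25.6 FPKM, 3.20-fold lower (2.64 to 3.89). JUND, also an AP-1 subunit, was higher, at 17.2 and 7.02 FPKM (2.45-fold, 1.94 to 3.10), and at 0.87 on the trend-corrected log2 scale. The ETS factor ELK3 was at 3.30 and 0.827 FPKM, 3.99-fold higher (2.65 to 6.17). The log2 ratios of JUNB, FOSL2 and JUN were -0.87, -0.45 and -0.28, all within the limits. Thus 5 of the 6 AP-1 subunits at 1 FPKM had the lower value in the perturbed library, JUND being the other. So did 6301 of all 11785 genes at that level. The AP-1 subunit FOSB, under 1 FPKM in both libraries, went the other way, at 0.749 and 0.34 FPKM. The ETS and RUNX factors within the limits went both ways. ETS1, RUNX3 and ETV5 had log2 ratios of 0.93, 0.78 and 0.20, and ETV4 and ETS2 of -0.81 and -0.77. These factors, JUNB, FOSL2, JUN and FOSB were picked with their values known.

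CpG dinucleotides were counted in the 250 bases before the start. The 12 members at 1 FPKM or more with a window had a median of 26 CpG, the 19 under 1 FPKM in both and above 0 in at least 1 had 21, and the 20 listed at 0 in both libraries had 14.5. Over all genes of the tables with a window the medians were 23, 16 and 4. Members listed at 0 with many CpG were ADAMTSL3 with 40, ADAM23 with 33 and ADAM12 with 31, chosen after their values were seen. These are descriptions over genes, which are not replicates.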
